A study of Homo sapiens with 8 samples.

Results

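H929 cells were compared after 24 h in fluvastatin and after 24 h in its solvent, ethanol, and the response of this line was followed across all protein-coding genes. The comparison was chosen by the sample labels and rests on 4 of the 8 libraries of the series. H929 (NCI-H929) is an established multiple myeloma (MM) cell line that carries the translocation t(4;14), which places NSD2 and FGFR3 under immunoglobulin control. The groups were H929 in 2 µM fluvastatin (H929_Fluva, 2 libraries) and H929 in ethanol (H929_EtOH, 2 libraries), with cells of both groups grown in RPMI medium with 10% fetal bovine serum. The study chose the time to precede cell death and treated a further t(4;14)-positive line, KMS11, in the same way. The labels call the libraries of a group biological replicates. The p values rest on the spread between replicate cultures, estimated jointly from all 8 libraries of both lines. H929 is 1 line, so that they do not measure a spread between lines.

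Fluvastatin is a statin, a class of drugs that block the mevalonate (MVA) pathway. This pathway supplies sterols and also the isoprenoids farnesyl and geranylgeranyl pyrophosphate, which prenyltransferases attach to small GTPases such as RHOA and its relatives. Cells commonly answer low sterol by SREBP2-driven transcription of MVA pathway genes, and a separate route, the integrated stress response (ISR), raises translation of the transcription factor ATF4 when eIF2α is phosphorylated.

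Values per library are TMM-scaled counts at a common library size (CPM), made from the deposited expected counts, and TPM is the deposited length-scaled level. A log2 fold change is fluvastatin minus ethanol. A gene was called higher or lower at an adjusted p under 0.05 in edgeR's quasi-likelihood test, adjusted by Benjamini and Hochberg's method over 13129 protein-coding genes. The 4 libraries held 26702515 to 34433011 counts, of which 85.18% to 86.1% fell on protein-coding genes. The plasma cell label was checked against markers. All 10 plasma cell markers stood above 10 TPM in each of the 4 libraries, and all 8 mature B cell and all 8 erythroid markers stood below 1 TPM. Of the T and NK cell, monocyte and granulocyte, and fibroblast and endothelial markers, 9 of 10 in each list were below 1 TPM. Bulk RNA cannot tell fewer cells in a given state apart from less RNA per cell.

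Promoter sequences of 7 genes that changed, in sets by motif, are shown first because their motifs recur in the gene groups. They are read 5′ to 3′ on the strand of the gene from the RefSeq promoter table of GRCh38.p14, which covers 250 bases before to 50 after each start and held a promoter for 10642 of the tested genes. The first set shows members of the ISR and amino acid lists that rose and hold TGATGNAA, the ATF4 composite element, on either strand (capitals).
ATF3, chr1:212565176-212565263, plus strand: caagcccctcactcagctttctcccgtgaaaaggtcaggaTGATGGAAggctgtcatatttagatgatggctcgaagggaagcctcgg
CHAC1, chr15:40953222-40953309, plus strand: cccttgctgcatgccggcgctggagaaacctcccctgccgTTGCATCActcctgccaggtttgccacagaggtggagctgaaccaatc
ASNS, chr7:97872429-97872516, minus strand: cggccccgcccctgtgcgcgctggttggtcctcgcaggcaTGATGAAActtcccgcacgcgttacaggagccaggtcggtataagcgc
The second set shows S phase genes that fell and hold TTTCCCGC, an E2F site, on either strand (capitals).
UHRF1, chr19:4909447-4909500, plus strand: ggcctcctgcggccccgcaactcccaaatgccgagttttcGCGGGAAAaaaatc
GINS2, chr16:85688955-85689025, minus strand: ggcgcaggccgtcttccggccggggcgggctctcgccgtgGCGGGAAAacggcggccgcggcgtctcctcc
PCNA, chr20:5126634-5126721, minus strand: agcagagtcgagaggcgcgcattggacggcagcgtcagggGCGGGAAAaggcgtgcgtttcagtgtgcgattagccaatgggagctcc
The last sequence is that of a replication-dependent histone gene that fell and holds CCAATCA, an NF-Y box with its flank, on either strand (capitals).
H2BC13, chr6:27807959-27808088, minus strand: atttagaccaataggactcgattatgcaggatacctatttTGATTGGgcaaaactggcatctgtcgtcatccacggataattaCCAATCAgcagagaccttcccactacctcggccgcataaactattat
Their shares among the promoters of all tested genes are given with each gene group, and a match to a motif is a description of these letters only.

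Fluvastatin changed a large part of the transcriptome of H929 cells. Of the 13129 genes tested, 5511 (42.0%) were called, 2982 of them higher (22.7%) and 2529 lower (19.3%). The rises reached further than the falls. A log2 fold change of at least 1 was met by 1163 genes that rose and 590 that fell, and one of at least 3 by 161 that rose and 13 that fell. The median log2 fold change was 0.82 among the genes that rose and -0.66 among those that fell, and it was 0.02 over all genes tested. The values of the 2 treatments did not overlap for any of the 5511 called genes, which was also so for 71.0% of all genes tested.

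The share of genes called lower grew with the level of the gene, from 3.68% of the 1714 genes with a mean log2 CPM below 0 to 23.2% at 4 to 6, 28.6% at 6 to 8 and 27.5% above 8. The share called higher lay between 18.8% and 25.9% in all these classes. The median standard error of the log2 fold change was 0.60 in the class below 0 and 0.13 at 4 to 6.

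**Figure D1:**
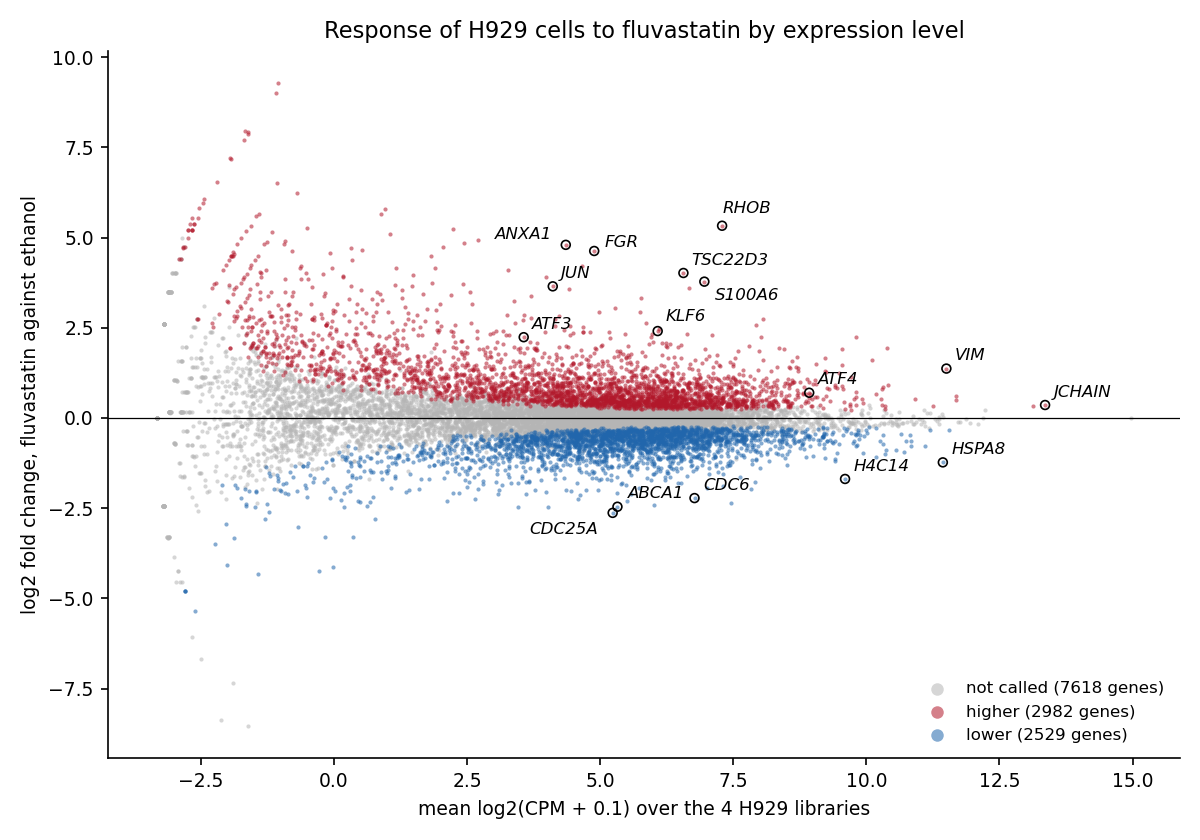
Log2 fold change of fluvastatin against ethanol in H929 cells (y axis) against the mean log2(CPM + 0.1) of the 4 libraries (x axis), with 1 point per protein-coding gene tested and called genes in colour. The upper tail reaches further than the lower: 161 genes of all levels rose and 13 fell by a log2 fold change of at least 3. Folds of genes with 0 counts in 1 treatment depend on a prior count.

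The genes with the largest rises coded for a small GTPase, a kinase, membrane-binding proteins and transcription factors. RHOB (ENSG00000143878.9, chr2:20447074-20449440 of GRCh38), a short-lived small GTPase that can be farnesylated or geranylgeranylated, had the largest rise of the well-expressed genes. It went from 27.4 and 22.0 CPM in ethanol to 977 and 1010 CPM in fluvastatin, a mean of 24.7 ± 3.84 against 994 ± 22.8 (SD, n = 2). Its log2 fold change was 5.33 (SE 0.21, adjusted p = 1.1e-06, edgeR).

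ANXA1, a calcium-dependent membrane-binding protein, stood at 3.30 and 4.56 CPM in ethanol and at 78.7 and 140 CPM in fluvastatin (log2 fold change 4.80, SE 0.33). FGR, a SRC-family tyrosine kinase, went from 6.26 and 5.56 to 159 and 134 CPM (4.63, SE 0.18). TSC22D3, a leucine zipper protein known as a glucocorticoid target, went from 27.7 and 19.5 to 417 and 352 CPM (4.02, SE 0.19). In all of these genes each fluvastatin library lay more than 10-fold above each ethanol library. JUN, a subunit of AP-1, went from 5.62 and 4.04 to 59.4 and 62.9 CPM (3.65, SE 0.19). The calcium-binding proteins S100A6 and S100A4 rose by 3.78 and 3.61. The remaining large rises were those of SLC4A8 (4.10), MTMR11 (3.92), SPRR2A (3.58), WDR72 (3.37) and SULT1A4 (4.22), which shares reads with its near-identical copy SULT1A3 and is uncertain for that reason.

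The largest falls were those of cell cycle, replication and histone genes, with a sterol transporter and a transcription factor among them. CDC25A (ENSG00000164045.11, chr3:48157146-48188417), the phosphatase that opens entry into S phase, stood at 88.0 and 98.9 CPM in ethanol and at 13.7 and 16.6 CPM in fluvastatin. Its mean fell from 93.5 ± 7.65 to 15.1 ± 2.08 CPM (SD, n = 2; log2 fold change -2.63, SE 0.12, adjusted p = 1.6e-06, edgeR). MYB, a transcription factor of proliferating blood cells, went from 50.8 and 54.2 to 12.2 and 9.87 CPM (-2.25). The groups of both genes lay well apart. MCM10 (-2.42), UHRF1 (-2.30), CDC6 (-2.22) and CDC45 (-2.14), all factors of DNA replication or its chromatin, fell by similar amounts, as did XRCC3 (-2.11) and ITPRIPL1 (-2.10). The histone genes H3C13 and H2AC12 both fell by a log2 fold change of -2.48, and H3C15 by -2.37. H3C15 passed narrowly (adjusted p = 0.039, edgeR) and was not called when any 1 of the H929 libraries was left out.

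The largest changes of mean TPM were those of abundant genes. Mean TPM rose from 505 to 1299 for VIM, a component of intermediate filaments, and from 990 to 1716 for B2M, the light chain of MHC class I. The actin-binding thymosins TMSB10 (368 to 994 TPM) and TMSB4X (326 to 927 TPM) and the galectin LGALS1 (470 to 1174 TPM) rose as well. JCHAIN, which joins immunoglobulin polymers, went from 4606 to 5763 TPM but was not called once the GC trend was removed (log2 fold change 0.23, adjusted p = 0.12, edgeR). The largest falls of mean TPM were those of the histone H4C14 (1649 to 491), the chaperone HSPA8 (1177 to 500), PTMA (1095 to 633), the glycolytic enzyme GAPDH (1022 to 660), and the nucleolar and ribosomal proteins NPM1 (1249 to 895) and RPL35 (1157 to 810). NPM1 was not called without H929_Fluva replicate 1 (adjusted p = 0.087, edgeR) or without H929_EtOH replicate 2 (adjusted p = 0.11, edgeR). RPL35 was not called without H929_Fluva replicate 2, and its log2 fold change was -0.10 with GC and length trends removed (adjusted p = 0.33, edgeR). H4C14 shares near-identical coding sequence with other histone H4 genes, and its reads cannot be assigned with certainty.

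The genes of the MVA pathway itself moved little, and more of them fell than rose. Of 9 measured enzymes from acetyl-CoA to the isoprenoids, 1 was higher and 3 were lower (median log2 fold change -0.43, or -0.26 with the GC trend removed). HMGCS1, a synthase near the entry of the pathway, stood at 72.1 and 71.3 CPM in ethanol and at 84.3 and 84.5 CPM in fluvastatin. Both fluvastatin libraries lay above both ethanol libraries, but the log2 fold change of 0.24 (SE 0.10) missed the threshold (adjusted p = 0.098, edgeR). It was called with a replicate block when the H929 libraries were fitted alone (0.23, adjusted p = 0.00019). A difference between the responses of the lines, KMS11 minus H929 on the log2 scale, was called for 3048 genes (23.2%). In KMS11 the change of HMGCS1 exceeded that of H929 by 1.80 (adjusted p of the difference 0.00011, edgeR).

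Farther down the pathway the directions were mixed. FDPS, which makes farnesyl pyrophosphate, fell from 329 and 290 to 230 and 206 CPM (-0.51, SE 0.11, adjusted p = 0.0035, edgeR). GGPS1, which extends it to geranylgeranyl pyrophosphate, rose from 11.3 and 12.9 to 17.5 and 20.9 CPM (0.67, SE 0.13, adjusted p = 0.0026, edgeR). ACAT2, at the entry of the pathway, fell by -0.66 and PMVK by -0.43 (adjusted p = 0.048, edgeR), a call that was lost without H929_EtOH replicate 1 or without H929_Fluva replicate 2. Of 12 measured enzymes of cholesterol synthesis after squalene, 4 were lower and 1 was higher (median -0.10). DHCR7, which acts at the last step of cholesterol synthesis, went from 46.8 and 36.1 to 25.0 and 18.9 CPM (-0.92, SE 0.18). EBP, a sterol isomerase, went from 70.9 and 63.2 to 44.4 and 43.6 CPM (-0.61), SC5D rose (0.48; not called without H929_EtOH replicate 1 or H929_Fluva replicate 2), and SQLE stood at -0.29 (adjusted p = 0.075, edgeR). Among 12 regulators and targets of SREBP, 2 were higher and 2 lower (16.7% each, against 22.7% and 19.3% of all genes tested). MBTPS2 (0.50) and NPC2 (0.42) rose, MYLIP (-0.60) and MBTPS1 (-0.31) fell, and INSIG1, which retains SREBP in the ER, stood at -0.38 without a call. Without H929_EtOH replicate 1, or without H929_Fluva replicate 2, 0 of the 12 were higher and the median turned from -0.09 to 0.12 or 0.14. MBTPS1 was not called when any library but H929_EtOH replicate 1 was left out.

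The largest falls among genes of sterol metabolism were those of LXR targets. LXR receptors respond to oxysterols and drive sterol efflux. Of 8 measured LXR genes, 4 were lower and 1 was higher (median -0.36), with 0 higher when any 1 of the 4 libraries was left out. ABCA1 (ENSG00000165029.15, chr9:104781006-104928155), the cholesterol efflux pump, stood at 93.4 and 94.2 CPM in ethanol and at 17.3 and 16.7 CPM in fluvastatin (-2.46, SE 0.13, adjusted p = 2.4e-06, edgeR). ABCG1, a related sterol transporter, went from 10.0 and 8.96 to 2.20 and 1.65 CPM (-2.31, SE 0.18). Neither gene's groups came near each other. Of 13 fatty acid synthesis and desaturation genes, 5 were lower and 1 was higher (median -0.44). SCD, the stearoyl-CoA desaturase, fell from 490 and 391 to 243 and 145 CPM (-1.18, SE 0.20), and FADS1 fell by -1.09 and FASN by -1.08. FASN passed narrowly (adjusted p = 0.049, edgeR) and was not called without H929_EtOH replicate 1 or H929_Fluva replicate 2.

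A sterol element written TCACNCCAC was in 1.1% of the promoters of all tested genes on either strand, in 0 of 7 MVA pathway promoters and in 0 of 9 cholesterol synthesis promoters with a sequence. CCAATCA was in 9.97% of the promoters of tested genes, in 4 of these 7 and in 5 of these 9.

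**Figure D2:**
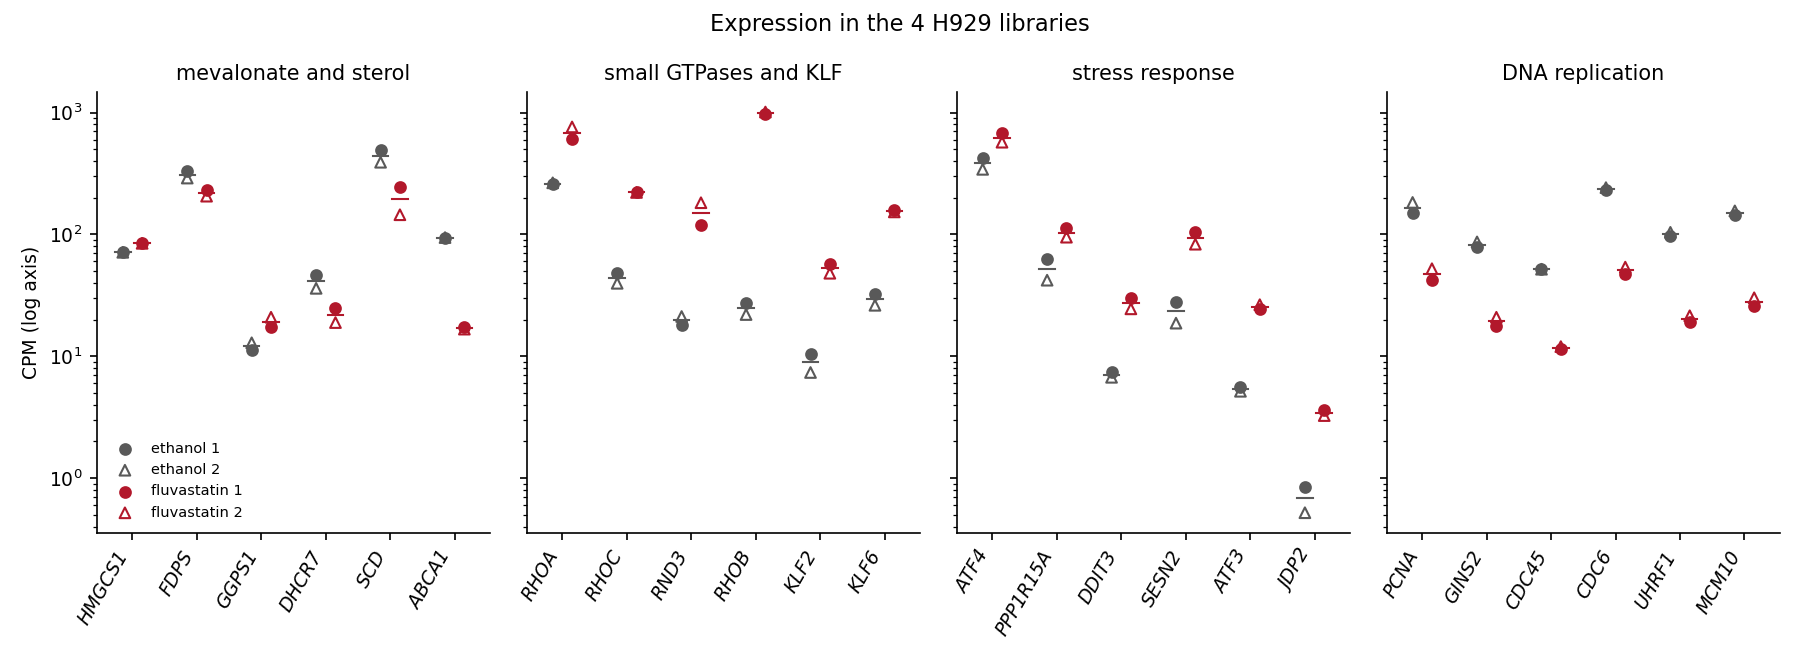
CPM of 24 genes (x axis) in each H929 library, on a log y axis, for sterol, small GTPase and KLF, stress, and DNA replication genes, with filled circles for replicate 1, open triangles for replicate 2 and a bar at the mean of each treatment. HMGCS1 separates by a small amount, near 71.7 CPM in ethanol and near 84.4 CPM in fluvastatin. RHOB lies near 24.7 CPM in ethanol and near 994 CPM in fluvastatin.

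Of 11 prenylation enzymes, 3 were higher and 2 lower, shares near the 22.7% and 19.3% of all genes tested. Without H929_EtOH replicate 1, or without H929_Fluva replicate 2, 1 of the 11 was higher. RABGGTB, the catalytic subunit of the transferase for Rab proteins, fell from 206 and 243 to 128 and 129 CPM (-0.81, SE 0.11), and ICMT, which methylates prenylated proteins, fell by -0.73. CHM, the escort protein of the Rab transferase, rose by 0.68 and PTAR1 by 0.43. FNTB (-0.38) and PGGT1B (0.24), subunits of the other prenyltransferases, were not called.

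RHOA and the small GTPases related to it are substrates of these enzymes. Of 18 measured members of this family, 9 were higher and 1 was lower (median 0.42). After RHOB, the largest change was that of RND3, a family member that opposes RHOA signalling, which went from 18.2 and 21.2 to 119 and 182 CPM (2.94, SE 0.24). RHOC went from 48.6 and 39.7 to 224 and 221 CPM (2.33, SE 0.14). RHOA, chosen after its values were seen, is abundant and rose from 258 and 265 to 608 and 762 CPM (1.39, SE 0.11). RHOV, at under 1 CPM, was the member that fell (-2.02), a call lost with DESeq2 and without H929_EtOH replicate 1, H929_Fluva replicate 1 or H929_Fluva replicate 2. Of 17 regulators of these GTPases, 8 were higher and 1 was lower (median 0.33). Among them ARHGDIB, a GDP dissociation inhibitor that holds them in the cytosol, rose by 1.82, ARHGEF3 by 1.36, the microtubule-bound exchange factor ARHGEF2 by 1.13 and ARHGAP30 by 1.0.

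Krüppel-like factors are zinc finger transcription factors, and KLF2 is known as a statin-induced gene of endothelium. Of 13 measured members, 9 were higher and 1 was lower (median 0.94). KLF2 went from 10.5 and 7.36 to 57.6 and 48.0 CPM (2.56, SE 0.19, adjusted p = 1.3e-05, edgeR). KLF6 went from 32.6 and 26.2 to 159 and 153 CPM (2.41, SE 0.12, adjusted p = 2e-06, edgeR). KLF3 (11.5 and 11.2 to 85.3 and 87.4 CPM) and KLF9 (9.02 and 7.96 to 46.0 and 45.8 CPM) rose by 2.93 and 2.43. KLF7 was near 1 CPM in ethanol (0.919 and 1.0) and reached 27.7 and 27.3 CPM (4.84), below the level limit for the largest rises.

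More genes of the actin cytoskeleton were higher than lower, and tubulins went both ways. Of 18 genes that depend on SRF and its actin-sensing cofactor MRTF, 10 were higher and 1 was lower (median 0.63). FLNA, an actin crosslinker, went from 768 and 603 to 2855 and 2422 CPM (1.94, SE 0.24, adjusted p = 0.0002, edgeR). VCL rose by 1.39, ACTN1 fell by -1.06, and the actins ACTB (0.21) and ACTG1 (0.04) had no call. Of 14 tubulins, 3 were higher and 7 lower (median -0.63). TUBA1A went from 39.7 and 37.5 to 153 and 147 CPM (1.96) and TUBB3 rose by 1.79, whereas TUBA4A fell by -1.52 and the centrosomal TUBG1 by -1.14.

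All 12 measured annexin and S100 genes were higher (median 1.61, or 1.44 with ANXA3 at its counting limit). Fewer were called without H929_EtOH replicate 1, H929_EtOH replicate 2 or H929_Fluva replicate 2. ANXA3 had 0 counts in ethanol and 3 and 5 in fluvastatin, for which no fold is given. Of 19 integrins and adhesion molecules, 12 were higher and 1 was lower (median 0.76). CD44, the hyaluronan receptor, chosen after its values were seen, went from 359 and 310 to 954 and 1181 CPM (1.67). ITGAX and ITGB3 had 0 counts in both ethanol libraries and 12 and 16, or 21 and 20, in fluvastatin. Against a floor of 3 counts per library, they were at least 5.27-fold and at least 7.78-fold higher.

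Several of these genes are also known from myeloid cells, and the markers of such cells were checked. The summed level of the 10 monocyte and granulocyte markers was 1.90 and 2.30 TPM in ethanol and 8.68 and 8.16 TPM in fluvastatin. CD68, a lysosomal membrane protein, made up most of it (1.90 and 2.29 against 8.30 and 7.79 TPM), and CD14, CSF1R and ELANE were at 0 in all 4 libraries. The 10 T and NK cell markers summed to 1.61 and 1.64 TPM in ethanol and to 3.79 and 4.67 TPM in fluvastatin, most of it CD3E, with CD8A and CD8B at 0. Against a sum of 6180 to 7987 TPM for the plasma cell markers, these levels were low. Their part in the rises was not tested.

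The ISR core rose as a whole. All 14 measured members of its transcriptional core were higher (median 1.41). With DESeq2 13 were higher, and fewer than 14 were called with each H929 library left out in turn. ATF4 (ENSG00000128272.14, chr22:39519695-39522683), which is controlled mainly by translation, had 425 and 342 CPM in ethanol and 674 and 571 CPM in fluvastatin. Its mRNA rose by a log2 fold change of 0.70 (SE 0.13, adjusted p = 0.0017, edgeR), among the smaller changes of the list. ATF3, a factor induced downstream of ATF4, went from 5.58 and 5.16 to 24.5 and 26.5 CPM (2.24, SE 0.14, adjusted p = 4.5e-06, edgeR). DDIT3 (CHOP), a factor of prolonged ER stress, went from 7.42 and 6.72 to 30.0 and 24.5 CPM (1.95, SE 0.16, adjusted p = 2.2e-05, edgeR). PPP1R15A (GADD34), which directs dephosphorylation of eIF2α, went from 62.3 and 42.1 to 112 and 94.9 CPM (0.99, SE 0.17, adjusted p = 0.0014, edgeR). In each of these genes the groups were apart. SESN2, a sestrin that restrains mTORC1, went from 28.0 and 18.7 to 104 and 83.1 CPM (2.0, SE 0.19), and JDP2 rose by 2.30 from below 1 CPM. CHAC1, which degrades glutathione and whose promoter is shown above, rose by 1.51. EIF2S1, which encodes eIF2α itself, fell from 267 and 313 to 179 and 216 CPM (-0.55, SE 0.13, adjusted p = 0.0075, edgeR). This call was lost without H929_Fluva replicate 1 (adjusted p = 0.057) and without H929_EtOH replicate 2 (adjusted p = 0.059).

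Genes that supply amino acids rose in part. Of 13 amino acid transporters, 7 were higher and 1 was lower (median 0.37), and 4 were higher without H929_Fluva replicate 1 or without H929_EtOH replicate 2. SLC7A11, the cystine importer, went from 31.4 and 25.0 to 127 and 157 CPM (2.33). SLC6A9, a glycine carrier, SLC38A2 and SLC1A4 rose by 1.71, 1.29 and 1.09. Of 15 genes of amino acid synthesis, 9 were higher and 2 lower (median 0.55). CTH, which makes cysteine from cystathionine, went from 8.44 and 5.52 to 47.3 and 53.4 CPM (2.84). CBS, the enzyme before it, rose by 1.56, GPT2 by 1.09 and ASNS, the asparagine synthetase shown above, by 0.81. MTHFD1, of the cytosolic folate cycle, fell from 140 and 138 to 58.9 and 61.8 CPM (-1.20). The 20 aminoacyl-tRNA synthetases gave 5 higher and 5 lower (25.0% each), near the 22.7% and 19.3% of all genes tested. WARS1 (192 and 169 to 719 and 642 CPM, 1.92), GARS1 (1.05) and CARS1 (0.90) rose, and FARSA fell (-1.12).

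TGATGNAA, the ATF4 composite element, was in 1.68% of the promoters of all tested genes, in 2.73% of those that were higher and in 1.43% of those that were lower. It was in 2 of 14 ISR promoters, 3 of 12 promoters of amino acid transporters and 2 of 10 promoters of amino acid synthesis genes. It starts 191 bases before the RefSeq start in ATF3, 209 in CHAC1 and 68 in ASNS. With the window ended at the RefSeq start, 0 of the 12 transporter promoters held it.

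The unfolded protein response (UPR) did not move as the ISR did. Of 30 measured genes of ER folding, sensing and degradation, 7 were higher and 15 lower (median -0.32). Without H929_EtOH replicate 1 the number higher was 4, and without H929_Fluva replicate 2 the number lower was 8. HSPA5 (BiP), the main chaperone of the ER lumen, stood at 434 and 419 CPM in ethanol and at 348 and 339 CPM in fluvastatin (-0.31, SE 0.09, adjusted p = 0.016, edgeR). This fall was not called when any 1 of the 4 libraries was left out, with adjusted p from 0.054 to 0.094 (edgeR). XBP1, the factor that sustains the secretory state of plasma cells, fell from 3365 and 3384 to 2689 and 2628 CPM (-0.34, SE 0.08, adjusted p = 0.0083, edgeR), and was not called without H929_Fluva replicate 2 (adjusted p = 0.058, edgeR). PDIA4, a disulfide isomerase, fell from 547 and 488 to 297 and 249 CPM (-0.92), and SDF2L1 by -1.13. Among the sensors of the UPR, EIF2AK3 (PERK), which phosphorylates eIF2α, rose from 636 and 628 to 1834 and 1990 CPM (1.60, SE 0.14, adjusted p = 2.6e-05, edgeR). ERN1 (IRE1) rose from 195 and 185 to 429 and 390 CPM (1.11), while ATF6 stood at 0.09 (adjusted p = 0.46, edgeR).

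Of 18 AP-1 and related early response factors, 4 were higher and 1 was lower (median 0.36), and the share higher was near the 22.7% of all genes tested. With JUN, JUND (1.27) rose and FOSL1 fell (-1.15), whereas FOS (0.61) and EGR1 (1.07, adjusted p = 0.065, edgeR) were not called. FOSL1 was not called with DESeq2 or without H929_EtOH replicate 1, H929_EtOH replicate 2 or H929_Fluva replicate 2. With the GC trend removed, 10 of the 18 were higher. Of 15 MAP kinase phosphatases and Sprouty genes, 4 were higher and 3 lower. DUSP16, which acts on JNK, went from 17.2 and 15.3 to 62.2 and 68.3 CPM (2.01). DUSP8, a related phosphatase, had 0 counts in ethanol and 60 and 41 in fluvastatin, at least 19.3-fold higher against the floor of 3 counts per library.

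**Figure D3:**
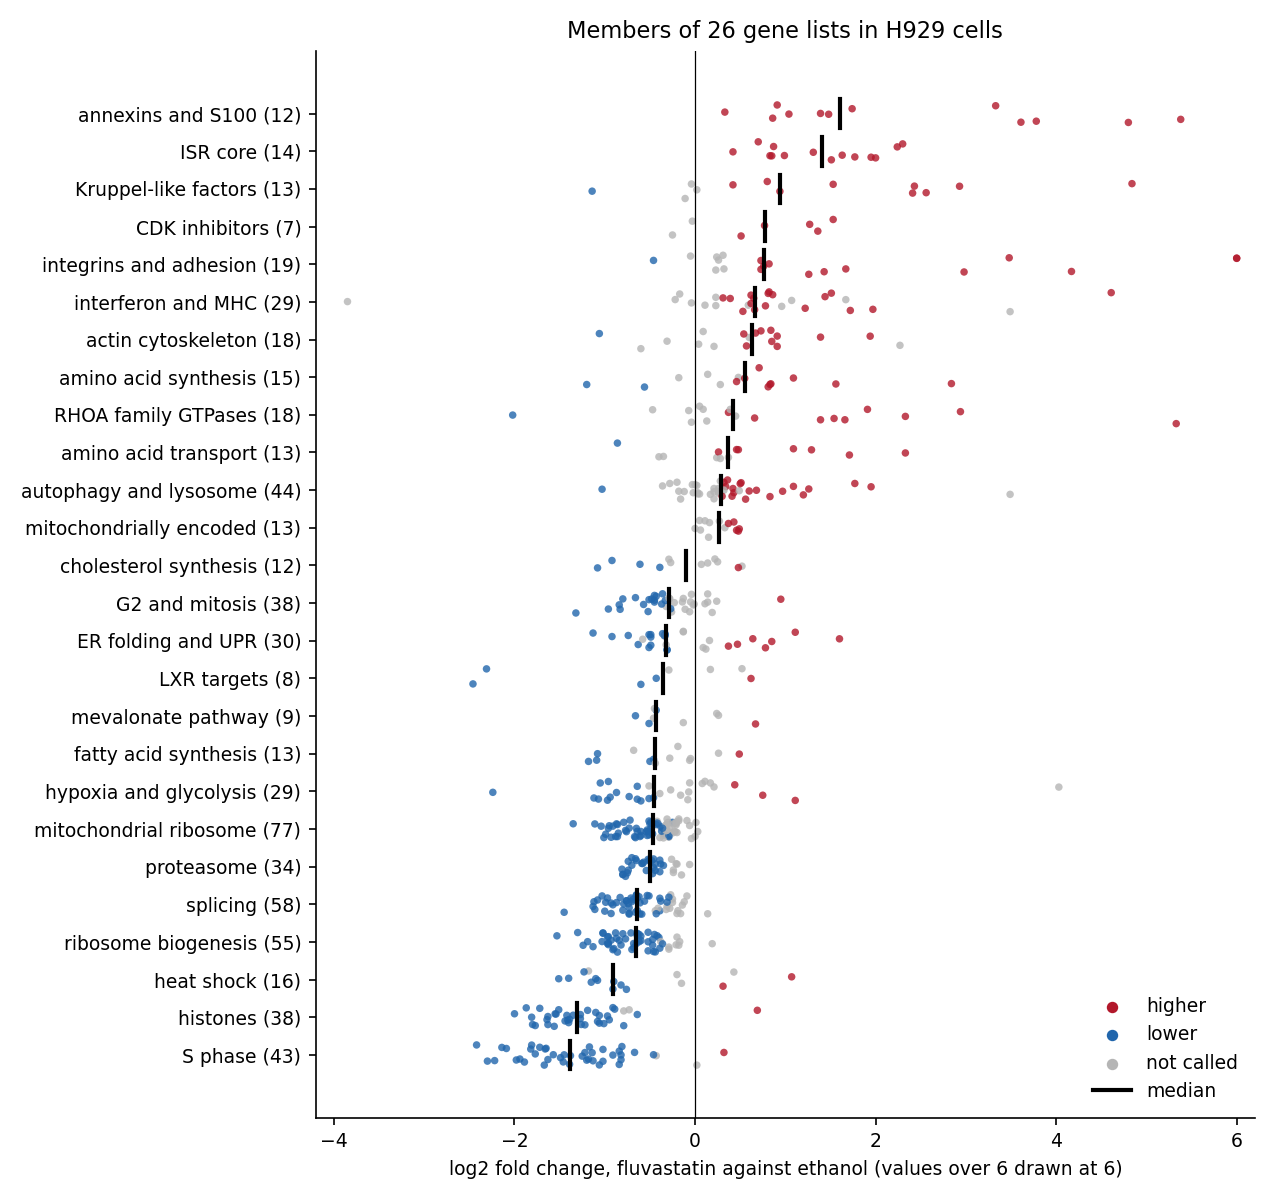
Log2 fold change of each measured member of the gene lists (x axis, points; values over 6 are drawn at 6), with the median of each list as a bar, called members in colour and the number measured in brackets. Fitted values of genes with 0 counts in 1 treatment depend on a prior count. The 14 ISR core genes all lie to the right of 0, and 40 of the 43 S phase genes were called lower.

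Genes of DNA replication fell together. Of 43 measured S phase genes, 40 were lower and 1 was higher (median -1.38). The member that rose, named after its values were seen, was the G1 cyclin CCND2 (2103 and 2242 to 2599 and 2826 CPM, 0.32). PCNA, the sliding clamp of the replicative polymerases, shown here for its promoter, went from 149 and 183 to 42.2 and 52.3 CPM (-1.81). MCM10 went from 143 and 156 to 25.8 and 30.2 CPM and CDC45 from 51.6 and 51.8 to 11.4 and 12 CPM. UHRF1, which reads hemimethylated DNA at the fork, went from 96.4 and 104 to 19.1 and 21.5 CPM, and CDC6, which loads the MCM helicase, from 230 and 242 to 47.3 and 53.9 CPM. GINS2, a subunit of that helicase, fell by -2.09. In each of these genes both fluvastatin libraries lay far below both ethanol libraries.

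TTTCCCGC, an E2F site, was in 2.6% of the promoters of all tested genes, in 4.42% of those that were lower and in 9 of 35 S phase promoters (25.7%). TTTGGCGC, a further form of the site, was in 1.12%, 1.95% and 7 of 35 (20%). These motifs were chosen after the fall of the S phase genes had been seen. TTTCCCGC lies 14 bases before the start in UHRF1, 31 in GINS2 and 59 in PCNA.

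Histone genes fell with replication, but with more spread between libraries. Of 38 measured genes, 35 were lower and 1 was higher (median -1.31), and 22 were lower without H929_EtOH replicate 1 or without H929_Fluva replicate 2. H2BC13 had 67.5 and 42.1 CPM in ethanol and 18.4 and 9.18 CPM in fluvastatin (-2.0, SE 0.34, adjusted p = 0.0013, edgeR). H3C4 had 27 and 11.9 against 8.56 and 2.13 CPM (-1.87, SE 0.59, adjusted p = 0.035, edgeR), a call lost without H929_EtOH replicate 1, without H929_Fluva replicate 2 and with DESeq2. In both, replicate 1 stood above replicate 2 in each treatment. H2AC4 (-1.81) and H2BC14 (-1.80) fell by similar amounts. Replication-dependent histone genes have near-identical copies, which leaves single members uncertain. CCAATCA was in 25 of 34 histone promoters (73.5%) and in 9.97% of the promoters of tested genes, and H2BC13 holds it 119 and 76 bases before its start.

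Mitotic genes moved less than S phase genes. Of 38 measured G2 and M genes, 18 were lower and 1 was higher (median -0.29). The number lower was 10 without H929_Fluva replicate 1, 9 without H929_EtOH replicate 2 and 26 with the GC trend removed. MAD2L1, of the spindle checkpoint, fell from 195 and 263 to 80.8 and 103 CPM (-1.32), AURKB by -0.96 and CDC20 by -0.84, while CDC25B rose by 0.95. MKI67, the Ki-67 antigen, stood at 450 and 443 in ethanol and at 422 and 448 CPM in fluvastatin (-0.04, adjusted p = 0.80, edgeR), and TOP2A at -0.14 (adjusted p = 0.38, edgeR). Of 7 CDK inhibitors, 5 were higher and none lower, and 3 were higher without H929_Fluva replicate 1 or without H929_EtOH replicate 2. CDKN1B (p27) rose from 70.0 and 71.8 to 118 and 124 CPM (0.77), and CDKN2B and CDKN2D by 1.36 and 1.27.

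Genes of apoptosis went both ways. Of 16 BCL2 family genes, 7 were higher and 2 lower (median 0.31). The pro-apoptotic BCL2L11 (BIM) went from 25.4 and 26 to 61.8 and 74.3 CPM (1.40), and BBC3 (PUMA) rose by 2.12. BCL2A1, which protects cells, rose by 1.3 and was not called without H929_Fluva replicate 1 or H929_EtOH replicate 2. MCL1, a survival factor of plasma cells, chosen after its values were seen, rose from 979 and 1013 to 1881 and 1859 CPM (0.91). BCL2 (-0.19) and BCL2L1 (0.12) were not called. Of 24 p53 targets, 8 were higher and 6 lower, with TP53INP1 at 1.90, AEN at -1.10 and MDM2 at -0.06 without a call. These shares were 33.3% and 25.0%, against 22.7% and 19.3% of all genes tested. Without H929_EtOH replicate 2 the number higher was 5, and without H929_Fluva replicate 2 the number lower was 3.

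Genes that build the machinery of RNA and protein synthesis fell broadly, and no member of these lists rose. Of 55 ribosome biogenesis genes, 47 were lower (median -0.65), and 1 was called higher when GC and length trends were both removed. TCOF1, which supports rRNA transcription, fell from 139 and 124 to 49.4 and 41.6 CPM (-1.53), and the box C/D snoRNP protein NOP56 from 254 and 291 to 105 and 116 CPM (-1.3), with MRTO4 (-1.24) and NOP16 (-1.19). Of 58 splicing genes, 43 were lower (median -0.64). The Sm protein SNRPD1 fell from 126 and 156 to 59.8 and 69.0 CPM (-1.13), and SNRNP25 by -1.45. Of 77 mitochondrial ribosomal proteins, 49 were lower (median -0.47), led by MRPS34 (-1.35) and MRPL18 (-1.11). The E-box CACGTG, bound by MYC and its relatives, was in 10.1% of the promoters of tested genes, in 13.1% of those of genes that were lower and in 17 of 45 of those of ribosome biogenesis (37.8%). With the window ended at the start, these shares were 8.88%, 10.6% and 5 of 45 (11.1%).

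Genes of protein folding and breakdown were split. Of 34 proteasome genes, 27 were lower and 0 higher (median -0.49). PSMD11, a subunit of the regulatory particle, fell from 143 and 144 to 81.6 and 81.3 CPM (-0.81). Of 16 cytosolic and mitochondrial chaperones, 10 were lower and 2 higher (median -0.90), with 0 higher without H929_EtOH replicate 1, H929_EtOH replicate 2 or H929_Fluva replicate 2. HSPA8 fell from 4007 and 4503 to 1806 and 1810 CPM (-1.23, SE 0.16, adjusted p = 0.00028, edgeR), HSP90AA1 from 951 and 1085 to 414 and 506 CPM (-1.15), and the mitochondrial HSPE1 from 230 and 272 to 81.4 and 95.5 CPM (-1.51). Of 44 autophagy and lysosome genes, 19 were higher and 1 was lower (median 0.29), with 11 higher without H929_EtOH replicate 2 or without H929_Fluva replicate 2. The lysosomal protease CTSL went from 23.7 and 23.1 to 77.7 and 81.8 CPM (1.77), and MAP1LC3B (LC3B), of the autophagosome membrane, rose by 1.26 and WIPI1 by 1.20.

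Of 29 hypoxia and glycolysis genes, 14 were lower and 3 higher (median -0.46). The glycolytic enzyme ALDOA fell from 917 and 842 to 442 and 368 CPM (-1.12) and GPI by -1.07, the prolyl hydroxylase P4HA1 rose from 97.1 and 99.4 to 207 and 219 CPM (1.11), and LDHA stood at -0.07 without a call. Of 13 genes of the mitochondrial genome, 5 were higher and none lower (median 0.27). MT-CO1, a subunit of cytochrome oxidase, had 2811 and 2776 against 3602 and 4224 CPM (0.49), and 1 of the 13 was higher without H929_EtOH replicate 2 or without H929_Fluva replicate 2. Of 18 NRF2 targets, 4 were higher and 7 lower (median -0.25). These shares were 22.2% and 38.9%, against 22.7% and 19.3% of all genes tested. NQO1 stood at 0.64, ABCC1 at -0.74 and SRXN1 at -0.65, with HMOX1 (0.03) and GCLC (-0.07) uncalled. The number higher was 2 without H929_EtOH replicate 1 or without H929_Fluva replicate 2.

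The plasma cell programme shifted in parts. Of 21 plasma cell and B cell transcription factors, 15 were higher and 2 lower (median 0.43), with 9 higher without H929_EtOH replicate 2. IRF4, on which myeloma cells depend, stood at 2027 and 2057 CPM in ethanol and at 1977 and 2039 CPM in fluvastatin (-0.02, adjusted p = 0.87, edgeR). BACH2, a repressor of plasma cell differentiation, rose from 24.2 and 20 to 77.0 and 77.7 CPM (1.81). Of the 10 plasma cell markers, 2 were higher and 5 lower. PRDM1, 1 of these markers, went from 58.4 and 52.7 to 68.2 and 67.6 TPM, and POU2AF1 from 21.9 and 21.2 to 15.7 and 17.6 TPM. BCL6 (0.102 and 0.240 to 1.45 and 1.17 CPM) and POU2F2 (0.374 and 0.120 to 0.878 and 1.29 CPM), factors of B cells, rose from low levels, by 2.94 and 2.07. Of 17 plasma cell surface antigens, 4 were higher and 2 lower. These shares, 23.5% and 11.8%, did not exceed by much the 22.7% and 19.3% of all genes tested. SDC1 (CD138) fell from 753 and 621 to 376 and 274 CPM (-1.08, SE 0.17, adjusted p = 0.00086, edgeR) and SLAMF7 from 473 and 415 to 233 and 216 CPM (-0.98). GPRC5D rose from 66.0 and 61.9 to 124 and 120 CPM (0.93) and FCRL5 by 0.89, which was not called when any 1 of the 4 libraries was left out, while TNFRSF17 (BCMA) at 0.19 and CD38 at 0.16 were not called.

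Of the genes placed under immunoglobulin control by t(4;14), NSD2 was called and FGFR3 was not. NSD2, a histone H3 methyltransferase, rose from 902 and 792 to 1162 and 1096 CPM (0.42, SE 0.10, adjusted p = 0.0068, edgeR) and lost its call without H929_EtOH replicate 2 (0.32, adjusted p = 0.069, edgeR) and with limma on log2(TPM + 1) (0.21, adjusted p = 0.27) and log2(TPM + 0.1) (0.21, adjusted p = 0.26). FGFR3, a receptor tyrosine kinase, had 85.9 and 53.7 against 72.6 and 44.3 CPM (-0.26, SE 0.25, adjusted p = 0.43, edgeR), and its groups overlapped. Its sign turned without H929_EtOH replicate 1 (0.12) and without H929_Fluva replicate 2 (0.06), and it was called lower with a replicate block (adjusted p = 0.031). MYC, chosen after its values were seen, had a log2 fold change of 0.39.

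Per-library trends with GC content were present in both treatments and ran along the replicate numbers. In the decile of genes with the lowest GC content (30.7% to 38.2%), the median log2 deviation from the mean of the 4 libraries was -0.15 in H929_EtOH replicate 1, -0.02 in H929_EtOH replicate 2, 0.00 in H929_Fluva replicate 1 and 0.16 in H929_Fluva replicate 2. In the decile with the highest GC content (61.5% to 76.0%), these deviations were 0.25, -0.07, 0.10 and -0.27. The ratio of replicate 2 to replicate 1 went from 0.12 to -0.32 across these deciles in ethanol and from 0.15 to -0.36 in fluvastatin, a larger change than that of the fluvastatin response.

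The median log2 fold change of fluvastatin against ethanol fell from 0.16 in the lowest decile to -0.17 in the highest. By pairing, the log2 ratio went from 0.14 to -0.14 for replicate 1 of both treatments, from 0.16 to -0.18 for replicate 2 of both, and from 0.30 to -0.51 for H929_Fluva replicate 2 over H929_EtOH replicate 1. It ran the other way, from 0.02 to 0.16, for H929_Fluva replicate 1 over H929_EtOH replicate 2. The share of genes higher fell from 31.5% to 9.67% and the share lower went from 11.1% to 16.1%. With a smooth GC trend removed from each library, the medians were 0.04 and 0.00, and the shares were 31.9% and 20% higher and 25.6% and 21.6% lower. The number of calls was then 7145, and the common dispersion went from 0.0125 to 0.0050. Of the 5511 genes called without the correction, 5427 were called in the same direction with it and 0 had the opposite sign.

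**Figure D4:**
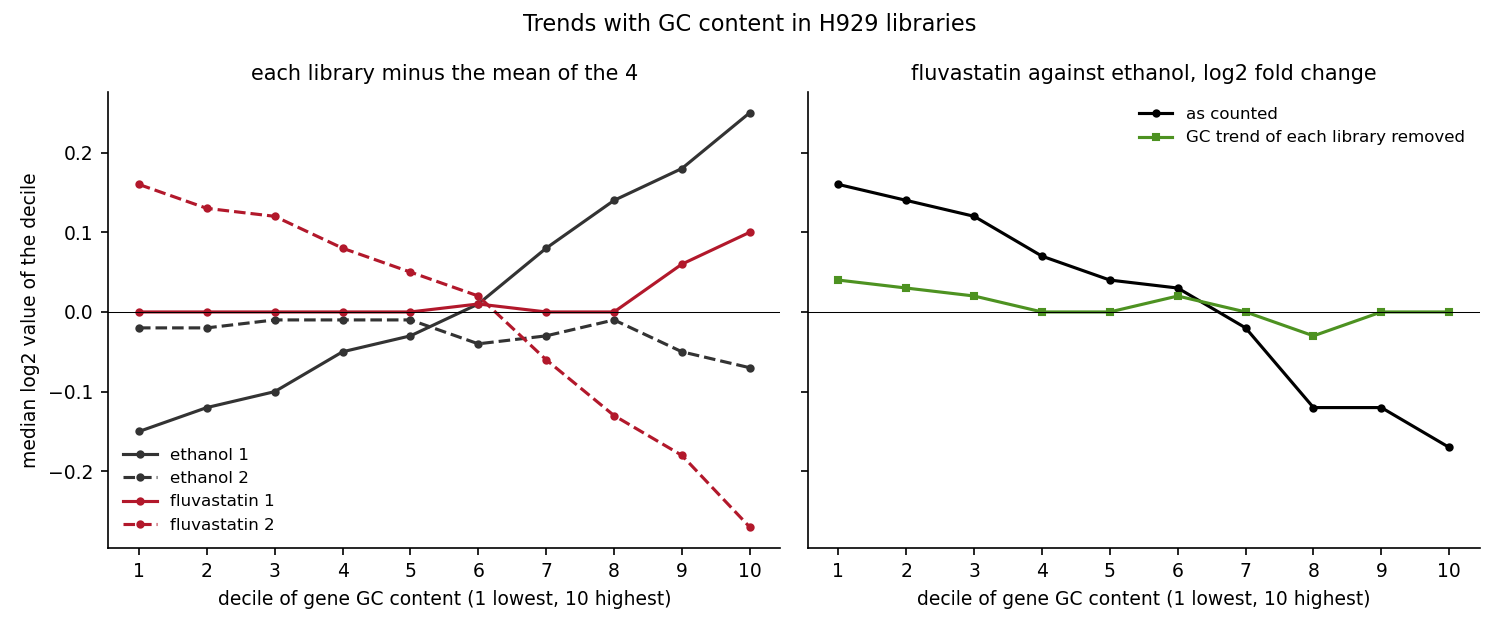
Median log2 values by decile of gene GC content (x axis, lowest to highest): the deviation of each H929 library from the mean of the 4, and the fluvastatin response before and after a smooth GC trend is removed per library. The response runs from 0.16 to -0.17 before and from 0.04 to 0.00 after.

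A trend with gene length was left after the GC trend had been removed. Length here is the deposited effective length, averaged over all 8 libraries. In the decile of genes with the shortest lengths (42.5 to 865 bases), the median log2 fold change was -0.18. Of its genes, 12.5% were higher and 28.9% lower. In the decile with the longest (4962 to 28122 bases) the median was 0.21, with 36.4% higher and 11.6% lower. With the GC trend removed the medians were -0.18 and 0.17. Each of the 4 pairings of a fluvastatin with an ethanol library gave it, from -0.20 to -0.14 in the shortest and from 0.16 to 0.23 in the longest decile. The histone list had a median of -0.89 with GC and length trends both removed and of -1.31 without. The median was -0.69 for ribosome biogenesis (-0.65 without), -0.62 for splicing (-0.64) and -0.38 for mitochondrial ribosomal proteins (-0.47). The part of length in these falls was not tested. With GC and length trends both removed, 7084 genes were called, 3535 higher and 3549 lower.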

How the data were processed

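RNA-seq was analysed from H929 cells in fluvastatin or ethanol, with the KMS11 libraries used to estimate the spread. The authors depleted ribosomal RNA, prepared stranded total RNA libraries, aligned paired-end reads to hg38 with STAR 2.5.2b and estimated abundance with RSEM 1.3.0. The deposited files give, for 58219 genes per library, expected counts, in which a fragment that fits several genes is divided among them, and TPM scaled by effective length. FPKM values were deposited as well and not used, since they repeat TPM on another scale, and other deposited columns hold lengths.

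Expected counts were rounded to whole numbers. GENCODE release 44, later than the authors' release, matched 57392 identifiers, 19683 of them protein-coding, and 45 entries of the Y pseudoautosomal region were left out. In R 4.3.3 with edgeR 4.0.16, genes were kept by filterByExpr (minimum count 10, minimum total count 15), scaled by TMM and tested by the quasi-likelihood F test on 4 group means of 8 libraries, with Benjamini-Hochberg adjustment over 13129 genes and called at an adjusted p under 0.05. Standard errors are the absolute log2 fold change over the square root of the F statistic. The biological coefficient of variation was 0.112, with 4 residual degrees of freedom. Depth was not varied, and its part in the calls was not tested. Limits from 0 counts use a floor of 3 counts per library and cover counting error only. The fit was run on simulated data with known changes in independent replicates, which does not test the deviations shared by same-numbered H929 libraries.

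GC and length trends were natural splines with 5 degrees of freedom, fitted per library and removed as offsets. Alternatives used limma 3.58.1, DESeq2 1.42.0, other scalings and filters, a replicate block, and each library left out. Gene lists were written from general knowledge and described by counts and medians. The members and lists were chosen with earlier results of these data known. Named genes were RHOB, KLF2, KLF6 and those the study names, the 12 largest rises and falls among non-overlapping called genes whose mean log2 CPM was 3 or more, the 6 largest rises and falls of mean TPM, up to 4 called and 2 uncalled members per list, and any member of a marker list. Promoters came from RefSeq, GRCh38.p14. Results that concern withheld items are not reported here.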

Additional observations from a re-analysis of the deposited data

Results flagged for a closer look

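The fluvastatin responses of the lines differed for 3048 genes, 23.2% of those tested, in edgeR's test of the interaction between line and treatment. Values in this paragraph are KMS11 minus H929 on the log2 scale, and each gene is given because that test called it. Most genes that rose strongly in H929 had a smaller change in KMS11: RHOB (-2.10), FGR (-3.79), SULT1A4 (-3.48), SLC4A8 (-3.75), TSC22D3 (-1.78), MTMR11 (-3.81), S100A6 (-3.08) and S100A4 (-2.78). The stress and Krüppel-like factor genes DDIT3 (-0.89) and KLF6 (-1.08) and the abundant transcripts JCHAIN (-0.64), VIM (-0.61), B2M (-0.92), TMSB10 (-1.07) and TMSB4X (-1.14) lay on the same side. Positive differences were those of HMGCS1 (1.80) and of genes that fell in H929. These were the cell cycle and replication genes CDC25A (2.32), MCM10 (2.30), UHRF1 (2.54), CDC6 (2.04) and CDC45 (2.22), the histone genes H3C13 (4.14), H2AC12 (3.50) and H4C14 (2.72), and ABCA1 (1.42), MYB (2.02), XRCC3 (2.37), ITPRIPL1 (1.66), HSPA8 (0.83), PTMA (0.55), GAPDH (0.82) and RPL35 (0.96). The genes named by size were chosen for a large change in H929, and H929 is part of each difference.

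Genes other than protein-coding ones were outside the comparison and also changed. Of 3579 such genes tested in a fit of all annotated genes, 684 (19.1%) were called in H929, 460 higher and 224 lower.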

How the results depend on the processing

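Replicates in a group number 2. The median standard error of the log2 fold change was 0.60 in the lowest level class and 0.10 in the highest. The response gave 5511 calls. A replicate block gave 6426 calls, with 3382 higher, and 8641 with 4271 lower when the 4 H929 libraries were fitted alone. The GC trend removed with a replicate block gave 3941 lower. The labels give the numbers no shared culture or day, so they were not taken to pair the libraries. Deviations of same-numbered libraries from their group means correlated at 0.80 in H929 and at -0.08 in KMS11. An adjusted p under 0.01 left 3538 genes, 1922 higher and 1616 lower, and a log2 fold change of at least 1 left 1753, 1163 higher and 590 lower. Leaving out each library in turn gave 3880 (without H929_Fluva replicate 2) to 4317 calls, of which 2062 to 2386 were higher and 1818 to 1931 lower. For the difference between the lines it gave 1758 (without H929_Fluva replicate 2) to 2661 genes, with 1906 without H929_EtOH replicate 1, and the replicate block gave 4227. DESeq2 called 5128 genes and limma on log2(TPM + 1) 4200. Of the 6 largest rises and 6 largest falls of mean TPM, 2 and 3 were among the largest by CPM. FGFR3 (-0.26) ranged from -0.66 to 0.12 with a library left out, positive without H929_EtOH replicate 1 (0.12) and without H929_Fluva replicate 2 (0.06). Of 195 named genes 194 kept their direction under all alternatives, as did the medians of 36 of 42 lists, the exceptions being those of cholesterol synthesis, SREBP, tRNA synthetases, MAP kinase phosphatases, p53 targets and chemokines. Of the 49 genes named by size, level or the study, 38 kept both call and direction. The causes of these changes were not tested.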

Other observations

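Gene groups of inflammation and antigen presentation, not described above, also rose in part in H929 cells. Of 29 interferon and MHC genes, 17 were higher and none lower (median 0.66), with 10 higher without H929_EtOH replicate 2 and 11 without H929_Fluva replicate 2. OAS1, an interferon-induced sensor of double-stranded RNA, went from 18.2 and 14.0 to 49.3 and 43.0 CPM (log2 fold change 1.51, SE 0.16). IFIT1 (1.57 and 1.88 to 4.74 and 6.57 CPM) and IFIT2 (0.545 and 1.16 to 2.28 and 4.31 CPM), interferon-induced proteins that bind RNA, rose by 1.72 and 1.97 from low levels, and IFIT2 was not called without H929_EtOH replicate 1 or H929_Fluva replicate 2. B2M rose from 890 and 1004 to 1513 and 1806 CPM (0.81). Of 21 NF-κB genes, 8 were higher and 1 was lower (median 0.31). BIRC3, an inhibitor of apoptosis, went from 2.14 and 2.16 to 7.07 and 6.40 CPM (1.64), TRAF1 rose by 1.63, and RELB, a subunit of the non-canonical pathway, went from 7.45 and 5.0 to 15.6 and 12.2 CPM (1.15).

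Of 10 chemokines and receptors, 3 were higher and 3 lower, with 1 lower without H929_EtOH replicate 2 or without H929_Fluva replicate 2. CCL3, a chemokine that myeloma cells are known to secrete, went from 109 and 89.1 to 543 and 652 CPM (2.59, SE 0.26). CCL3 and CCL4 (3.02) have near-identical copies, which leaves their values uncertain. CXCL16 fell by -1.48 at under 2 CPM and was not called with DESeq2 or without H929_EtOH replicate 2 or H929_Fluva replicate 2. Of the immunoglobulin assembly factors, MZB1 fell from 435 and 315 to 228 and 143 CPM (-1.02, SE 0.25), a call lost without H929_EtOH replicate 1 or H929_Fluva replicate 2, and the call of JCHAIN was lost with the GC trend removed, with limma, with all annotated genes and without H929_Fluva replicate 1 or H929_EtOH replicate 2. The light chain gene IGKC stood at 9111 and 6970 TPM in ethanol and at 8803 and 7248 TPM in fluvastatin, with the treatments overlapping. Of 10 myeloma oncogenes and genes beside the translocation, 4 were higher and 3 lower, and 2 were higher without H929_EtOH replicate 2 or without H929_Fluva replicate 2. LETM1 (69.8 and 70.1 to 42.0 and 40.5 CPM, -0.76) and TACC3 (71.8 and 70.1 to 45.3 and 40.1 CPM, -0.73), neighbours of FGFR3 and NSD2 on chromosome 4, were lower, as was CCND1 (-0.70).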
